A study of Mus musculus with 13 samples.

Results

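The genes described here mark pluripotent cells and the early germ line. They comprise pluripotency factors, the Dppa genes, regulators of primordial germ cells, RNA regulators of germ cells, piRNA pathway genes, and genes of meiosis and of the germ cell surface and bridges. The members were chosen by name from a list of 41 genes, and every array feature that the platform annotation assigned to one of them was taken. Of the 41 genes, 40 were represented on the array, by 51 of its 31465 named features. Fkbp6, whose product acts in the piRNA pathway, matched no named feature and was not analysed here. The whole table held 20738 named genes. Each gene was read from its brightest feature, by the mean of all 13 arrays. Differences between the features of 1 gene are given for some results and not for all.

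The study asked how induced embryonic Sertoli cells (ieSC) compare with fibroblasts and with native Sertoli cells. Mouse embryonic fibroblasts (MEF, 2 arrays) were wild type and carried an empty vector, and tail tip fibroblasts (TTF, 2 arrays) were wild type and carried tdTomato, a fluorescent reporter. The induced cells made from TTF are called TTF-ieSC (2 arrays) and those made from MEF are called MEF-ieSC (1 array). By the labels both carried the transgenes Nr5a1, Wt1, Dmrt1, Gata4 and Sox9, which encode transcription factors of the developing gonad. The native samples had no transgene and were wild type. They were whole male gonads of 14.5 dpc embryos, immature Sertoli cells of the 19 dpc embryo and mature Sertoli cells of 8-week-old mice, with 2 arrays each. Sertoli cells are the somatic cells that surround and feed germ cells in the testis tubules. The gonad was not cultured and held its germ cells beside its somatic cells. Culture lasted 3 days for the immature and 7 days for the mature Sertoli cells and 3 passages for the fibroblasts, all in 10% serum. The induced cells were kept for 6 months in 2% serum with doxycycline, so factors, time, serum and drug cannot be told apart in comparisons of induced cells with fibroblasts. The labels do not say whether replicates came from separate animals or cultures, so the errors and p-values cover the spread among the arrays at hand, part or all of which may be technical.

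Primordial germ cells keep a network of pluripotency genes active while they migrate to the gonad. In the fetal testis they then switch this network off, enter mitotic arrest and build the piRNA machinery, in which small RNAs guide Piwi proteins to silence transposons. Meiosis begins after birth in males, and retinoic acid drives Stra8, its gatekeeper. Most somatic cells keep such germline genes silent by DNA methylation and by repressor complexes at their promoters.

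The labels were set against marker lists. Each list was read as the log2 of its summed signal, in which the brightest genes weigh most. For 14 Sertoli markers it reached 19.52 in the gonad, 19.12 in immature and 19.20 in mature Sertoli cells, each on the higher array. In the same way it reached 19.37 in TTF-ieSC, 19.17 in MEF-ieSC, 14.90 in MEF and 13.39 in TTF. All 14 were above the array median, a log2 signal of 7.49, in the gonad and 13 in each Sertoli culture, where Amh was under it in the mature and Cst9 in the immature cells. Both induced groups had 10 above it, as had MEF, while TTF had 6, and Amh, Gata4, Fshr and Aard were under it in the induced groups. The median marker level was 9.17 in MEF-ieSC and 9.58 in TTF-ieSC, against 8.83 in MEF and 14.0 in immature cells, and 10 of the 14 were lower in TTF-ieSC than in immature cells. Of the 5 transgenes by label, Wt1 stood far above both fibroblasts, with means of 16.58 in MEF-ieSC and 16.48 in TTF-ieSC against 11.77 in MEF and 6.81 in TTF. Gata4 (6.92 in both induced groups) and Sox9 (9.12 and 9.79) were under both fibroblasts (9.43 and 7.19, 10.88 and 11.31 in MEF and TTF), and Dmrt1 was at 8.99 to 9.21 in all 4 groups. Nr5a1 was at 8.94 in MEF-ieSC against 9.19 in MEF and at 9.37 in TTF-ieSC against 8.28 in TTF. The signals of Gata4, Sox9 and Dmrt1 thus do not bear out the label in either induced group, nor does that of Nr5a1 in MEF-ieSC. In TTF-ieSC, Nr5a1 went the way of the label. Whether the features of these other 4 genes read the transgene transcripts is not given. Some genes that mark germ cells (Ddx4, Dazl and Mael among the members) were also above the array median in both Sertoli cultures. Sox2, Dppa3, Prdm14, Nanos2 and Sycp2 were under it in both cultures. Ddx4 was above it in both fibroblasts too (7.67 in MEF and 9.72 in TTF). Spermatid genes also marked the mature cultures: all 20 of a list were above the median there, against 6 to 8 in each other group. The log2 of their summed signal was 17.0 there, against 12.6 to 13.5. Over all genes, the 2 arrays of a group differed by a root mean square of 0.365 to 0.509 on the log2 scale. The part that germ cells in these cultures play in the differences was not tested. In bulk RNA, fewer cells of a type and less RNA per cell cannot be told apart.

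Most members were dim in fibroblasts and in induced cells and bright in the gonad. In the gonad 39 of 40 members lay above the array median, that is 97.5%, against 69.9% of all genes. The count was 34 in immature and 29 in mature Sertoli cells. It was 12 in MEF, 11 in TTF, 11 in TTF-ieSC and 10 in MEF-ieSC, the last being 25.0% of members against 65.9% of all genes. The median member level was 11.86 in the gonad, 9.85 in immature and 8.83 in mature cells, and 6.45 to 6.65 in the 4 fibroblast and induced groups. A total of 22 members were above the median in the gonad and in none of those 4 groups. The highest group mean was in the gonad for 31 members, in immature Sertoli cells for 4 (Stra8, Rec8, Tdrd9 and Tex101), in mature Sertoli cells for 2 (Gtsf1 and Tdrd6), in TTF for 2 (Prdm1 and the brightest Nanog feature) and in TTF-ieSC for the brightest Sall4 feature. Values under the array median are dim, and since no background is given with the table, folds against them are uncertain.

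**Figure D1:**
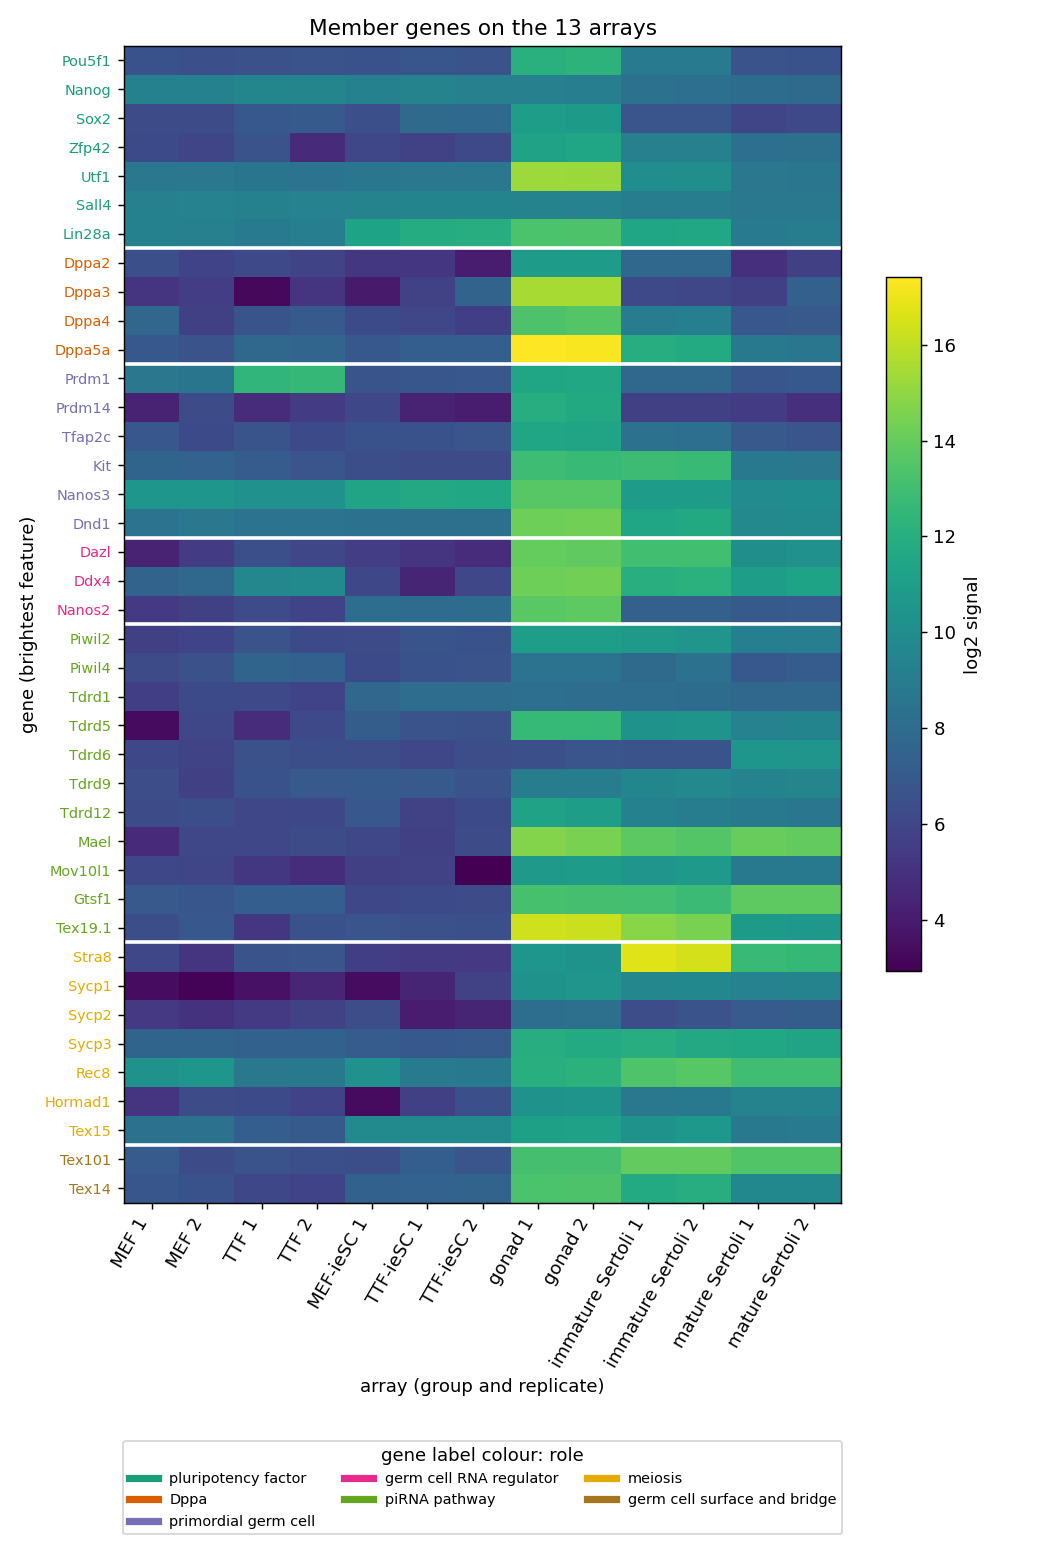
Log2 signal (colour) of the 40 members (rows, brightest feature of each gene, grouped by role) on the 13 arrays (columns). The bright block lies in the 6 native arrays, where the gonad has 39 members above the array median, and the induced columns stay dark apart from rows such as Lin28a, Nanos3 and Tex15.

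Promoter sequences are shown because germline genes are often silenced through CpG-rich promoters in somatic cells. RefSeq (GRCm38.p6) gave the 300 bases around a start site, from 250 before to 50 after, for 30 of the 41 genes. Their median CpG count was 17.5 per window, against 7.0 over 27025 genes. A motif of the E2F6 type, GCGGGAA on either strand, was found at 5 of the 30 genes (Ddx4, Hormad1, Sycp3, Tdrd5 and Tex14), which is 16.7% against 5.29% of all genes. The E-box CACGTG, which reads the same on both strands, was found at 9 of 30 (Ddx4, Fkbp6, Hormad1, Mael, Mov10l1, Sycp1, Sycp3, Tdrd1 and Tdrd9), which is 30.0% against 8.09%. No match of one motif overlapped a match of the other. Both motifs contain a CG, and the shares were not matched for the CpG count, which was higher in the windows of the members. A match is a description of letters and says nothing about binding. The windows below are those of 3 genes with both motifs, of 1 gene with an E-box, and of Dazl and Lin28a, which had neither. Capitals mark the 2 motifs, and each window is written 5′ to 3′ on the strand of its gene.
Ddx4 (chr13:112652261-112652560, minus strand, GRCm38.p6): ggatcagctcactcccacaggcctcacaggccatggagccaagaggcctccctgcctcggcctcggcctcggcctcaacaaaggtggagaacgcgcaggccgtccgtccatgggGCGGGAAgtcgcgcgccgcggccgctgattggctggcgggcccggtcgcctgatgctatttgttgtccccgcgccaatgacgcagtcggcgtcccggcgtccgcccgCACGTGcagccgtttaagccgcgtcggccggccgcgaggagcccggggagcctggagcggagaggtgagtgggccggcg
Sycp3 (chr10:88459337-88459636, plus strand, GRCm38.p6): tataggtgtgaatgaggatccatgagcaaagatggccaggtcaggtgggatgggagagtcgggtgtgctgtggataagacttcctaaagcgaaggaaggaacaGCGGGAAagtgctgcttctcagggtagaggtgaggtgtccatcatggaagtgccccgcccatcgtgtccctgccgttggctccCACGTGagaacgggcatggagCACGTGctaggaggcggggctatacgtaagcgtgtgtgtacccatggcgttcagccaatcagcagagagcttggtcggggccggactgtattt
Hormad1 (chr3:95559427-95559726, plus strand, GRCm38.p6): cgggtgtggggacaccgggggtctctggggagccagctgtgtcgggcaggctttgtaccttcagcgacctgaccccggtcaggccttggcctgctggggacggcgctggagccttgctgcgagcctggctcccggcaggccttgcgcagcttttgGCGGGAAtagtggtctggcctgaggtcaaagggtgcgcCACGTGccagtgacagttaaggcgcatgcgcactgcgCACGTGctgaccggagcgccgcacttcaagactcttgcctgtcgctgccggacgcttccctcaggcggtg
Mael (chr1:166238695-166238994, minus strand, GRCm38.p6): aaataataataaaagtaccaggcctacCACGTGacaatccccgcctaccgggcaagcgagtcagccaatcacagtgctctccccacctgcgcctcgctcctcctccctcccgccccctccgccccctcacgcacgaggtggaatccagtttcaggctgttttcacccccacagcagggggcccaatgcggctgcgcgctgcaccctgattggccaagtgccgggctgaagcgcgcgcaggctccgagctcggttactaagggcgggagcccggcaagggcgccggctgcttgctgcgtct
Dazl (chr17:50293571-50293870, minus strand, GRCm38.p6): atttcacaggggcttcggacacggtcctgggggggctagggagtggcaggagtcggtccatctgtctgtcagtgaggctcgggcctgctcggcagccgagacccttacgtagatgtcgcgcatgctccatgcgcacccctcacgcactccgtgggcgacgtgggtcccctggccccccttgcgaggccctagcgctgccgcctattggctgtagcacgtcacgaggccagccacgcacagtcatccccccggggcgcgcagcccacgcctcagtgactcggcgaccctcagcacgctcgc
Lin28a (chr4:134018767-134019066, minus strand, GRCm38.p6): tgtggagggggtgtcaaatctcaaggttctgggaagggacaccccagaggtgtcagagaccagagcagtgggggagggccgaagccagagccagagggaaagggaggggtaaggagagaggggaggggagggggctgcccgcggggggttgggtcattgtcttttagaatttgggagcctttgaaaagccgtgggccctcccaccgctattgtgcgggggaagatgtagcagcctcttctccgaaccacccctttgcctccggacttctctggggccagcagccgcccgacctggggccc
In the Ddx4 window the E2F6-type match began 136 bases and the E-box 29 bases before the start site. In the Sycp3 window the E2F6-type match began 147 bases before it and the E-boxes 64 and 43 bases before it. The Hormad1 window held its matches 95, 57 and 20 bases before the start site. The CpG count was 38 in the Ddx4 window, 28 in that of Dazl, 24 in those of Hormad1 and Mael, 15 in that of Sycp3 and 10 in that of Lin28a.

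Whole gonad was set against immature Sertoli cells to show which members were higher in the uncultured organ. The 2 groups differ in age, culture and cell make-up at once, and these cannot be told apart. Of the 40 members, 26 were higher in the gonad and 3 were lower, with a median difference of 1.66 on the log2 scale against 0.02 over all genes. Over all genes, 30.5% were called higher and 26.0% lower by limma at an adjusted p under 0.05, so calls in either direction were common in this comparison. All 7 pluripotency factors, all 4 Dppa genes, all 3 RNA regulators and 5 of 6 primordial germ cell genes were higher in the gonad. By contrast, 3 of 11 piRNA genes and 3 of 7 meiosis genes were higher, 2 meiosis genes were lower, and the median difference of the piRNA genes was 0.29. Markers of some other cell types were also higher in the gonad: 4 of 4 Leydig, 5 of 6 erythroid and 7 of 8 endothelial markers. The log2 of their summed signal was 18.1, 17.9 and 16.0 in the gonad, against 14.5, 9.44 and 13.6 on the lower immature array. Of 8 macrophage markers 0 were higher and 4 lower in the gonad, and of 8 fibroblast markers 3 were higher and 3 lower. The part of these cell types in the differences was not tested. The gonad, immature and TTF-ieSC arrays enter several comparisons, so the counts are not independent of each other.

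Among the pluripotency factors, Pou5f1, which encodes Oct4, stood at 12.10 and 12.26 in the gonad, 8.92 and 8.95 in immature cells, and 6.64 and 6.58 in mature cells. Its 7 fibroblast and induced arrays lay between 6.49 and 6.82, so no induced array reached the Sertoli cultures at 19 dpc. The gonad was 3.25 ± 0.09 (SE) above immature cells (adjusted p = 6.29e-08). Utf1, a chromatin factor of pluripotent cells, was at 15.28 and 15.24 in the gonad, 10.02 and 10.07 in immature cells and 8.65 and 8.62 in mature cells, within the range of the 7 fibroblast and induced arrays (8.42 to 8.69). Sox2, the partner of Oct4 on DNA, was at 10.97 and 10.84 in the gonad, and at 5.97 to 6.74 on the 4 Sertoli arrays. TTF-ieSC stood between, at 7.91 and 7.86, and MEF-ieSC was at 6.48. Zfp42, also called Rex1, was at 11.29 and 11.47 in the gonad, 9.24 and 9.26 in immature cells and 8.19 and 8.24 in mature cells. The gonad was 2.13 ± 0.53 above immature cells (adjusted p = 0.0097). Lin28a, which encodes an RNA-binding protein, was at 13.33 and 13.35 in the gonad, 11.49 and 11.58 in immature cells and 8.91 and 8.98 in mature cells.

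The Dppa genes are expressed in pluripotent cells and early germ cells, and their median difference between the gonad and immature cells was 4.91. Dppa3, also called Stella, which protects methylation in the zygote, was at 15.49 and 15.53 in the gonad and at 6.15 and 5.98 in immature cells, a difference of 9.44 ± 0.81 (adjusted p = 2.90e-05). Its values elsewhere were under the array median but for 1 TTF-ieSC array at 7.51. Dppa5a, which encodes an RNA-binding protein, was at 17.41 and 17.27 in the gonad, 11.96 and 11.76 in immature cells, and 8.77 and 8.60 in mature cells. The 3 native groups did not overlap. Dppa4, which pairs with Dppa2, was at 13.34 and 13.52 in the gonad and 9.04 and 9.16 in immature cells, a difference of 4.33 ± 0.54 (adjusted p = 2.56e-04). Feature 21973 of Dppa4 was at 9.16 and 9.29 in the gonad. In immature cells that feature was under the array median, at 7.07 and 6.61. Dppa2 was at 10.85 and 10.95 in the gonad and 7.80 and 7.82 in immature cells.

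Of the primordial germ cell genes, all but Kit were higher in the gonad. Prdm14, a regulator of germ cell specification, was at 11.95 and 11.72 in the gonad and at 4.10 to 6.29 on every other array. Nanos3, which protects migrating germ cells, was at 13.63 and 13.64 in the gonad and 10.90 and 10.91 in immature cells, a difference of 2.73 ± 0.04 (adjusted p = 5.51e-09). Dnd1, an RNA-binding protein of germ cells, was at 14.20 and 14.33 in the gonad, 11.49 and 11.70 in immature cells, 9.76 and 9.83 in mature cells, and 8.25 to 8.67 on the 7 remaining arrays. Tfap2c, a transcription factor of the germ cell program, was at 11.52 and 11.38 in the gonad, 8.32 and 8.23 in immature cells, and 6.95 and 6.74 in mature cells. It was 3.17 ± 0.24 higher in the gonad (adjusted p = 1.24e-05). Kit, the receptor for stem cell factor, was the member of this group that was not called: it stood at 12.92 and 12.73 in the gonad and 12.84 and 12.73 in immature cells, a difference of 0.04 ± 0.12 (adjusted p = 0.829). Prdm1, also called Blimp1, is described with the fibroblasts below.

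The RNA regulators of germ cells did not move alike. Nanos2, which holds male germ cells out of meiosis, was at 13.68 and 13.80 in the gonad, 7.38 and 7.34 in immature cells and 7.04 and 7.09 in mature cells. It was 6.38 ± 0.13 higher in the gonad than in immature cells (adjusted p = 1.82e-08). Dazl, a translational regulator, kept a high level in culture, at 14.01 and 13.86 in the gonad, 13.02 and 13.03 in immature cells and 10.13 and 10.23 in mature cells. Its call of 0.91 against immature cells (adjusted p = 0.0447) was lost when any single array of the gonad, the immature cells, the mature cells or TTF-ieSC was left out, with values of 0.83 to 0.98. Ddx4, the Vasa helicase, was at 14.21 and 14.32 in the gonad, 12.09 and 12.20 in immature cells and 11.00 and 11.34 in mature cells.

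The piRNA genes were above the array median in all 3 native groups, except Tdrd6 in the gonad and immature cells and Piwil4 in mature cells. Mael, a piRNA pathway protein, was at 14.70 and 14.48 in the gonad, 13.77 and 13.52 in immature cells and 14.06 and 13.95 in mature cells, against 4.66 to 6.28 on the 7 fibroblast and induced arrays. Tex19.1, a transposon-silencing factor, was at 16.38 and 16.26 in the gonad, 14.81 and 14.47 in immature cells and 10.83 and 10.67 in mature cells, highest in the gonad and lowest in the mature cells among the native groups. Gtsf1, a piRNA cofactor, was at 13.18 and 13.13 in the gonad and 13.09 and 12.78 in immature cells. Piwil2, which encodes a Piwi protein, was at 11.01 and 10.97 in the gonad and 10.71 and 10.50 in immature cells, a difference of 0.38 ± 0.14 (adjusted p = 0.0553). Mov10l1, an RNA helicase of the pathway, was at 10.78 and 10.89 in the gonad, 10.49 and 10.70 in immature cells and 8.79 and 8.78 in mature cells. Tdrd9, another helicase, was at 9.00 and 9.08, 9.56 and 9.72, and 9.40 and 9.53 in the same order, so all 3 native groups stood close together. Piwil4, a nuclear Piwi protein, was at 8.42 and 8.44, 7.96 and 8.32, and 6.92 and 7.13. The 3 that were called higher in the gonad were Tdrd12 (11.28 and 11.02 against 9.28 and 9.06), Tex19.1 and Tdrd5 (12.61 and 12.65 against 10.33 and 10.43). The call of Tdrd5 (2.25, adjusted p = 0.0383) was lost without any 1 array of the gonad, the Sertoli cells or TTF-ieSC, while feature 28798 of Tdrd5 gave 2.34 ± 0.15 (adjusted p = 5.98e-06).

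Stra8, which retinoic acid induces at the start of meiosis, had the largest difference in the other direction. It was at 10.52 and 10.39 in the gonad, 16.71 and 16.49 in immature cells and 12.72 and 12.57 in mature cells, so the gonad was 6.14 lower on the log2 scale than the immature cells (adjusted p = 5.18e-07, limma, as for all adjusted p). Rec8, a meiotic cohesin, was also lower in the gonad, at 12.08 and 12.24 against 13.43 and 13.63 (12.94 and 12.99 in mature cells), but it was above the array median in fibroblasts too. Hormad1 and Sycp2, proteins of the meiotic axis, were called higher in the gonad, at 10.35 and 10.43 against 8.72 and 8.78 and at 8.15 and 8.28 against 6.34 and 6.63. The second Hormad1 feature, 14686, did not pass (0.87, adjusted p = 0.156). Sycp3, an axial element of meiotic chromosomes, was at 11.97 and 11.80 in the gonad and 11.95 and 11.67 in immature cells, a difference of 0.07 ± 0.11 (adjusted p = 0.609). Sycp1, whose filaments join paired chromosomes, was at 10.38 and 10.48 against 9.64 and 9.67 and was not called. Tex101, a germ cell surface protein, was at 13.15 and 13.13 in the gonad, 13.93 and 13.94 in immature cells, and 13.46 and 13.45 in mature cells. It was called lower at −0.80 (adjusted p = 0.0267), a call lost when any array of either group was left out. Cyp26b1, which breaks down retinoic acid and is made by somatic cells, had means of 15.8 in the gonad, 10.7 in immature and 12.6 in mature cells, and its relation to Stra8 was not tested. Tex14, which keeps the bridges between germ cells open, was at 13.31 and 13.36 in the gonad, 11.76 and 11.93 in immature cells and 9.67 and 9.70 in mature cells.

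Nanog and Sall4 had features that disagreed. The brightest Nanog feature, 31383, was at 9.22 and 9.11 in the gonad, 9.22 to 9.56 on the fibroblast and induced arrays and 7.94 to 8.41 on the Sertoli arrays, while feature 43369 was at 13.72 and 13.54 in the gonad and 6.90 to 9.46 on those arrays. The gonad exceeded MEF by 4.22 ± 0.13 on feature 43369 (adjusted p = 7.01e-08) and not on feature 31383, where the difference was −0.12 (adjusted p = 0.243). Nanog encodes a homeodomain factor that sustains pluripotency, and which of its features reads its transcript was not tested. For Sall4, a zinc finger factor of germ cells, feature 29806 lay between 8.71 and 9.45 on all 13 arrays. Feature 51842 was at 12.25 and 12.34 in the gonad, 10.71 and 10.96 in immature cells, 7.89 and 7.91 in mature cells, and 4.58 to 6.10 in fibroblasts. The counts take the brightest feature, 31383 for Nanog and 29806 for Sall4, and in both genes that is the one with the narrowest range.

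**Figure D2:**
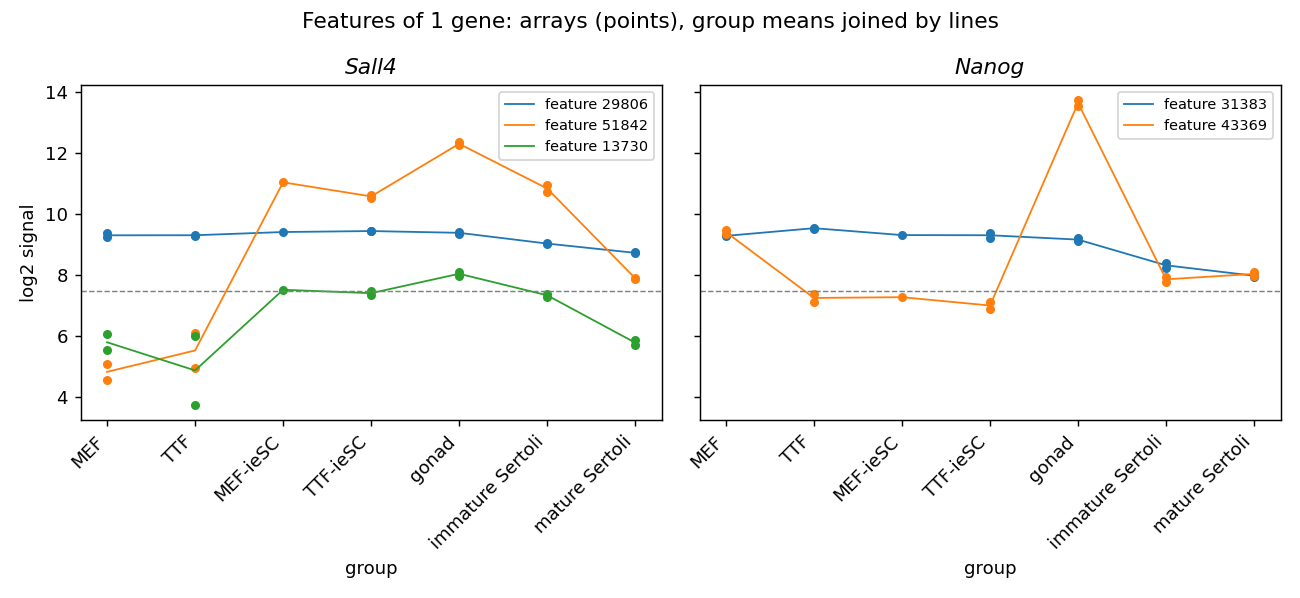
Log2 signal of each array (points) and group means (lines) for the 3 Sall4 features and the 2 Nanog features over the 7 groups. The dashed line is the array median, and feature 51842 of Sall4 rises from at most 6.10 in fibroblasts to at least 10.53 in induced cells while feature 29806 stays between 8.71 and 9.45.

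Against mature Sertoli cells, 30 members were higher in the gonad and 4 were lower (Tdrd6, Stra8, Rec8 and Gtsf1), with a median difference of 3.13 against 0.08 over all genes, of which 36.4% were called higher and 29.3% lower. Against MEF, 38 members were higher and 0 lower, with a median of 5.09 against 0.01. Here 33.9% of all genes were called higher and 30.6% lower by limma, and no member was lower at an unadjusted p under 0.05 either. The 2 members not called against MEF were Nanog and Sall4, each on its brightest feature.

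**Figure D3:**
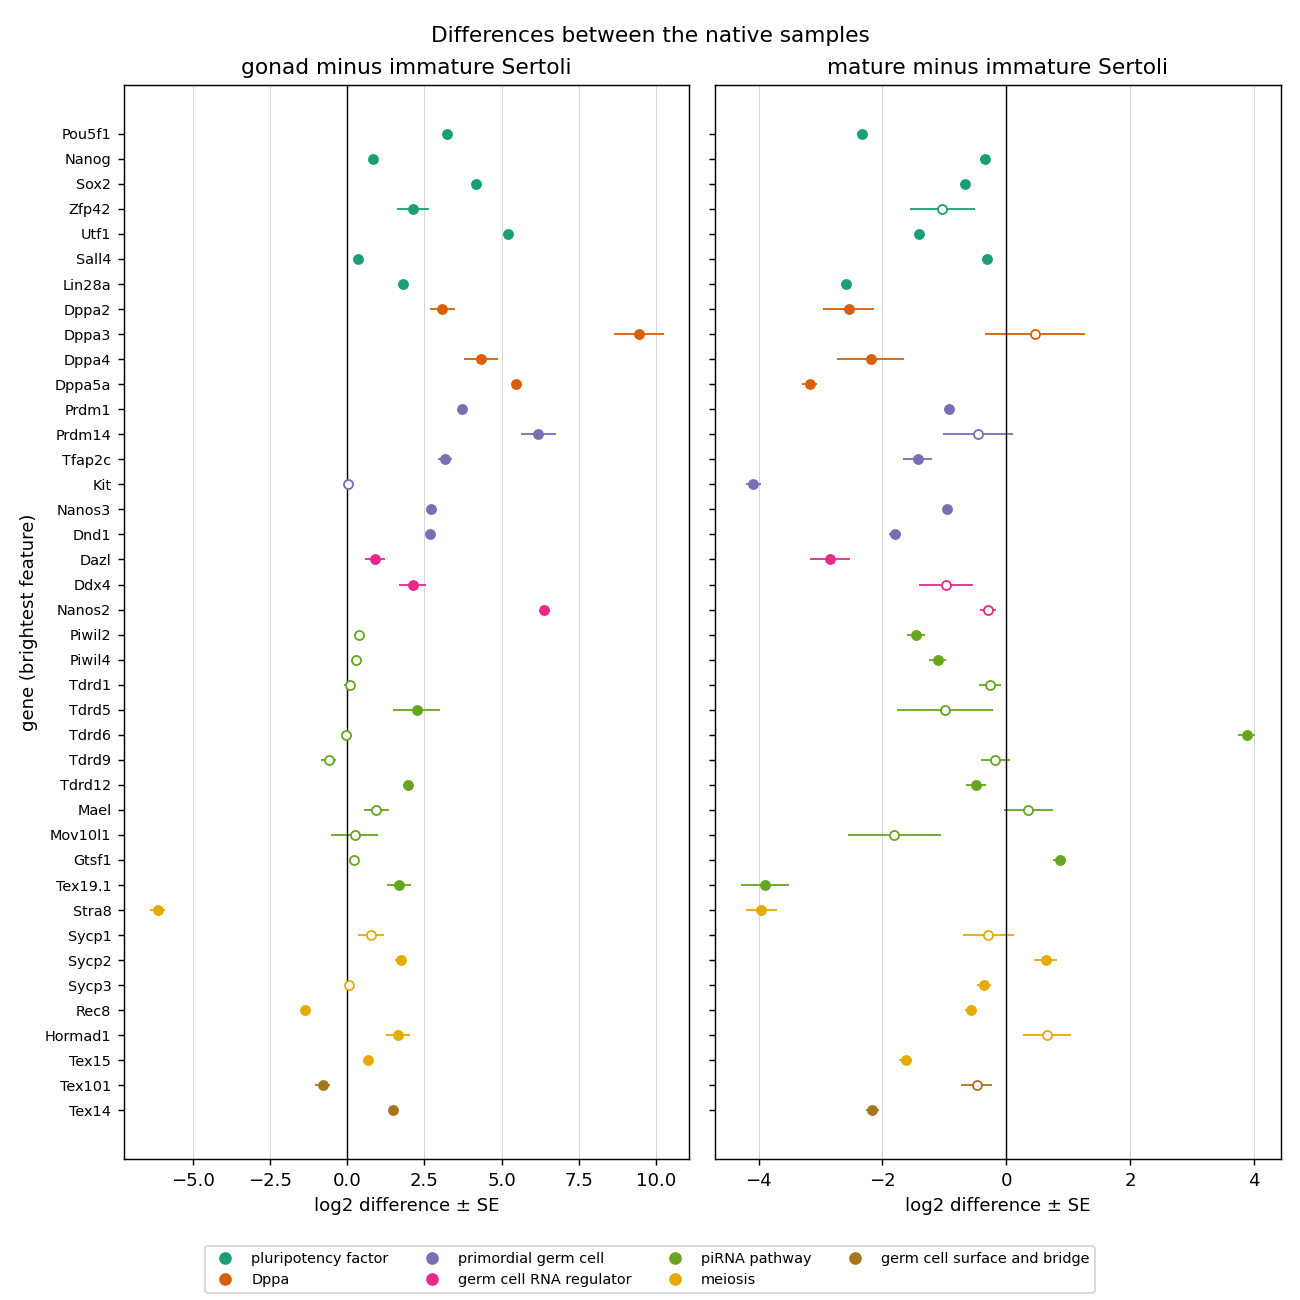
Log2 differences with SE (bars) of gonad minus immature Sertoli cells (left) and of mature minus immature Sertoli cells (right) for the 40 members, coloured by role. Filled points were called by limma and open points were not. Pluripotency and Dppa genes lie to the right of 0 in the left panel, where Stra8 lies at −6.14, and Tdrd6 stands at 3.88 in the right panel.

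Mature and immature Sertoli cells were compared to describe how the members differed between the 2 Sertoli cultures. Age and days in culture (7 for mature and 3 for immature cells) differ together and cannot be told apart. Of the members, 24 were lower in mature cells and 3 were higher, with a median of −0.96 against −0.08 over all genes, of which 31.5% were called lower and 23.4% higher. Spermatid genes moved the other way: all 20 of the list were higher in mature cells, with a median of 3.57, led by Ldhc, Pgk2 and Tssk2. Of 30 other germ cell genes in a list, 22 were lower and 5 higher. Among the members, 6 of 7 pluripotency factors, 3 of 4 Dppa genes and 5 of 6 primordial germ cell genes were lower. Dppa4 was not called on its feature 21973 (−0.22, adjusted p = 0.273). Kit was 4.09 lower on the log2 scale in mature cells, at 8.76 and 8.64 (SE 0.12, adjusted p = 1.47e-07). Pou5f1 was lower by 2.32, Lin28a by 2.59 and Dppa5a by 3.18, and each of these mature groups lay under both immature arrays. Stra8 and Tex19.1 were lower by 3.95 and 3.89.

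The 3 members that were higher in mature cells had different roles. Tdrd6, a scaffold of the chromatoid body in late germ cells, was at 10.53 and 10.47 in mature cells and at 5.91 to 6.74 on all 11 other arrays, so it was under the array median everywhere else. It was 3.88 ± 0.13 above immature cells (adjusted p = 2.82e-07). Gtsf1 was 0.86 ± 0.10 higher (adjusted p = 1.97e-04), at 13.80 on both mature arrays. Sycp2, another axial element protein, was called higher by 0.64 (adjusted p = 0.019), a call lost without immature replicate 1 (0.50) or without either mature array (0.69 and 0.58). Mael and Hormad1 were not called.

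The induced cells were then set against their own fibroblasts. In the TTF induction, 9 members rose and 12 fell, with a median of 0.03 against 0.05 over all genes, of which 32.6% rose and 29.2% fell. Of the members, 7 rose and 7 fell by 1 or more on the log2 scale, and neither share of members called was well above that of all genes. In the MEF induction, 10 rose and 6 fell, with a median of 0.08 against 0.02, while 27.6% of all genes rose and 27.1% fell. There, 5 rose and 4 fell by 1 or more. With 1 array, MEF-ieSC had no spread of its own, and the fit lent it that of the replicated groups.

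Lin28a, which blocks the making of let-7 microRNAs, rose in both. It was at 8.96 and 9.12 in TTF, 11.90 and 11.98 in TTF-ieSC, 9.28 and 9.24 in MEF and 11.35 in MEF-ieSC. The immature arrays, at 11.49 and 11.58, lay between the TTF-ieSC and MEF-ieSC values. It rose by 2.90 ± 0.07 from TTF (adjusted p = 1.13e-08) and by 2.09 ± 0.09 from MEF (adjusted p = 3.91e-07). Tex15, a piRNA and recombination factor in male germ cells, was at 7.24 and 7.03 in TTF, 9.81 and 9.88 in TTF-ieSC, 8.32 and 8.36 in MEF and 9.84 in MEF-ieSC. The native arrays of Tex15 were at 11.15 and 11.23 in the gonad, 10.37 and 10.64 in immature cells and 8.80 and 8.96 in mature cells, so the induced arrays lay between the 2 ages of Sertoli culture. It rose by 2.71 ± 0.11 and 1.50 ± 0.13. Nanos3 rose by 1.36 ± 0.04 and 0.89 ± 0.05, to 11.65, 11.64 and 11.40, which lay above both immature arrays and under both gonad arrays. Nanos3 was at 10.28 to 10.52 in the fibroblasts, already above the array median, so its signal there was not at the dim end.

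Nanos2 was at 6.24 and 5.85 in TTF and 8.00 and 8.02 in TTF-ieSC, and at 5.37 and 5.64 in MEF and 8.16 in MEF-ieSC. It rose by 1.96 ± 0.13 (adjusted p = 4.95e-06) and by 2.65 ± 0.16 (adjusted p = 4.20e-06), and stayed far under the gonad arrays at 13.68 and 13.80. Tdrd1, a piRNA scaffold, was at 6.12 and 5.84 in TTF, 8.12 and 8.10 in TTF-ieSC, 5.60 and 6.20 in MEF and 7.68 in MEF-ieSC. It rose by 2.13 ± 0.18 and 1.78 ± 0.22, and the TTF-ieSC arrays lay within the range of the native arrays (7.78 to 8.20) with MEF-ieSC just under it, although the MEF call was lost when the 2 groups were fitted alone (adjusted p = 0.058). Tex14 rose by 1.54 ± 0.10 and 0.74 ± 0.12, to 7.46, 7.51 and 7.44, near the array median, and the MEF call was lost when the 2 groups were fitted alone (adjusted p = 0.0747). Sox2 rose by 0.91 ± 0.07 from TTF and was not called from MEF.

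For Sall4, feature 51842 rose by 5.04 ± 0.33 from TTF (adjusted p = 4.41e-06) and by 6.20 ± 0.41 from MEF (adjusted p = 6.64e-06), to 10.53, 10.62 and 11.04. Feature 13730 rose by 2.53 from TTF (adjusted p = 0.00739) and was 1.72 higher from MEF without passing (adjusted p = 0.0882). Feature 29806, the brightest, did not pass in either induction. Dppa3 was called higher in TTF-ieSC by 2.49 (adjusted p = 0.0287), with arrays at 5.78 and 7.51 against 3.21 and 5.09. The call was lost without TTF replicate 1 (1.55) and without TTF-ieSC replicate 2 (1.63).

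In the TTF induction the widest falls were those of Prdm1 and Ddx4, which were above the array median in both fibroblasts. Prdm1, a repressor that sets the germ cell fate in mouse and acts in skin as well, was at 12.47 and 12.59 in TTF, 6.79 and 6.85 in TTF-ieSC, 8.69 and 8.57 in MEF and 6.71 in MEF-ieSC. It fell by 5.71 on the log2 scale from TTF (SE 0.07, adjusted p = 4.72e-10) and by 1.92 from MEF (SE 0.08, adjusted p = 5.95e-07), and TTF exceeded even the gonad (11.48 and 11.53). Ddx4 was at 9.65 and 9.79 in TTF, 4.42 and 6.03 in TTF-ieSC, 7.53 and 7.80 in MEF and 6.04 in MEF-ieSC. It fell by 4.50 from TTF (SE 0.44, adjusted p = 4.45e-05). Its fall of 1.63 from MEF (adjusted p = 0.0345) was lost without either MEF array (−1.77 and −1.49), and without any 1 array of the gonad, the immature cells or TTF.

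The brightest Nanog feature was called lower in TTF-ieSC than in TTF by 0.23, from a mean of 9.54 in TTF. The other falls named here started from signals near or under the array median. Kit fell by 0.69 from TTF and by 1.14 from MEF, where it was at 7.60 and 7.50, and Gtsf1 fell by 1.02 and 0.82. The second Kit feature, 12027, was 0.15 higher in TTF-ieSC than in TTF. Stra8 and Sycp2 each fell by 1.33 from TTF, between means under the array median. Dazl fell by 1.30 from TTF, a call lost without TTF replicate 1 (−1.07) or TTF-ieSC replicate 2 (−1.13). Dppa2 was called lower by 1.38, a call lost without either TTF array (−1.27 and −1.50) or TTF-ieSC replicate 2 (−0.79), and feature 53171 was 0.63 higher. Hormad1, a meiotic axis protein, fell by 2.35 in MEF-ieSC, where its single array was at 3.35, but not on feature 14686 (−1.05, adjusted p = 0.163) or with the 2 groups fitted alone (adjusted p = 0.108). Sycp2 rose by 1.13 there, to 6.32. Mael, Tex19.1, Pou5f1, Zfp42 and Sycp1 were not called in either induction.

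**Figure D4:**
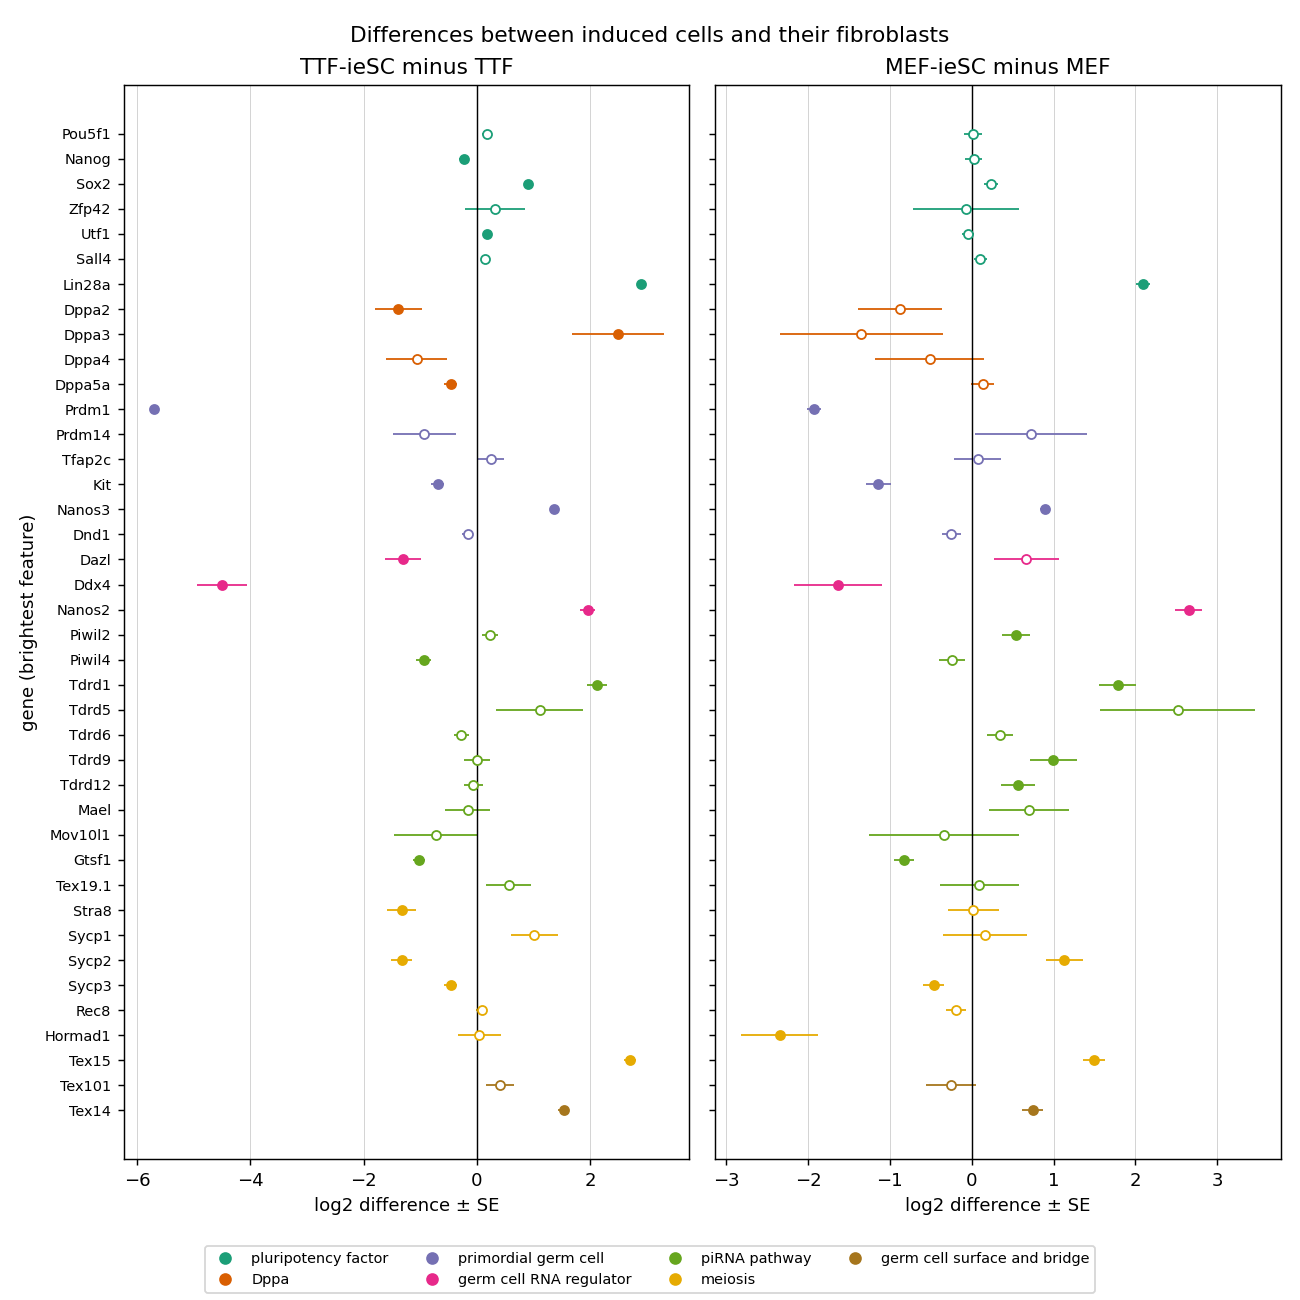
Log2 differences with SE (bars) of TTF-ieSC minus TTF (left) and MEF-ieSC minus MEF (right) for the 40 members, coloured by role. Filled points were called by limma and open points were not. In the left panel Prdm1 and Ddx4 lie farthest left, in the right panel Hormad1 does, and Lin28a, Tex15 and Nanos2 lie right of 0 in both.

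The 2 fibroblast types differed in some members before induction. In TTF against MEF, 13 members were higher and 7 lower, with a median of 0.05 against −0.02 over all genes, of which 25.1% were called higher and 28.4% lower. Prdm1 was 3.90 ± 0.07 higher (adjusted p = 1.74e-08) and Ddx4 2.06 ± 0.44 higher (adjusted p = 0.00511) in TTF. Rec8 and Tex15 were lower in TTF, by 1.70 and 1.21. The change in TTF induction minus that in MEF induction was tested as well: 7 members were called higher and 9 lower, against 22.5% and 19.8% of all genes. It was −3.79 for Prdm1 and −2.87 for Ddx4, which were among the 13 members that started higher in TTF. It was 1.22 for Tex15, which started lower there (0.31 on its feature 10963, adjusted p = 0.174). The TTF and MEF levels are themselves terms of this difference, so it is not independent of the starting levels.

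Induced cells were last set against native samples. Against immature Sertoli cells, 31 members were lower in TTF-ieSC and 6 were higher, with a median of −3.20 against 0.04 over all genes, of which 31.8% were called lower and 31.2% higher. The 6 higher ones were Sox2, Nanog, Nanos3, Nanos2, Sall4 and Lin28a. Nanog and Sall4 were higher by 0.98 and 0.41 on their brightest features, whereas feature 43369 of Nanog was lower, at −0.86 (adjusted p = 5.84e-04), and feature 51842 of Sall4 was at −0.26 (adjusted p = 0.537). Of the lower members, Dppa4 was not called on feature 21973 (−0.11, adjusted p = 0.587). Dppa2 was not called on feature 53171 (−0.83, adjusted p = 0.0541), nor Hormad1 on feature 14686 (−1.20, adjusted p = 0.0561). The widest gaps were those of Stra8 (−11.24), Tex19.1 (−8.18) and Dazl (−8.10). Against the gonad, 37 members were lower and 0 higher in TTF-ieSC, with a median of −5.39 against 0.02, and 34.1% of all genes were lower and 32.2% higher by limma. No member was higher at an unadjusted p under 0.05 either, and those not called were Nanog, Sall4 and Tdrd1, with Tdrd1 at −0.03 ± 0.18 (adjusted p = 0.889).

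**Figure D5:**
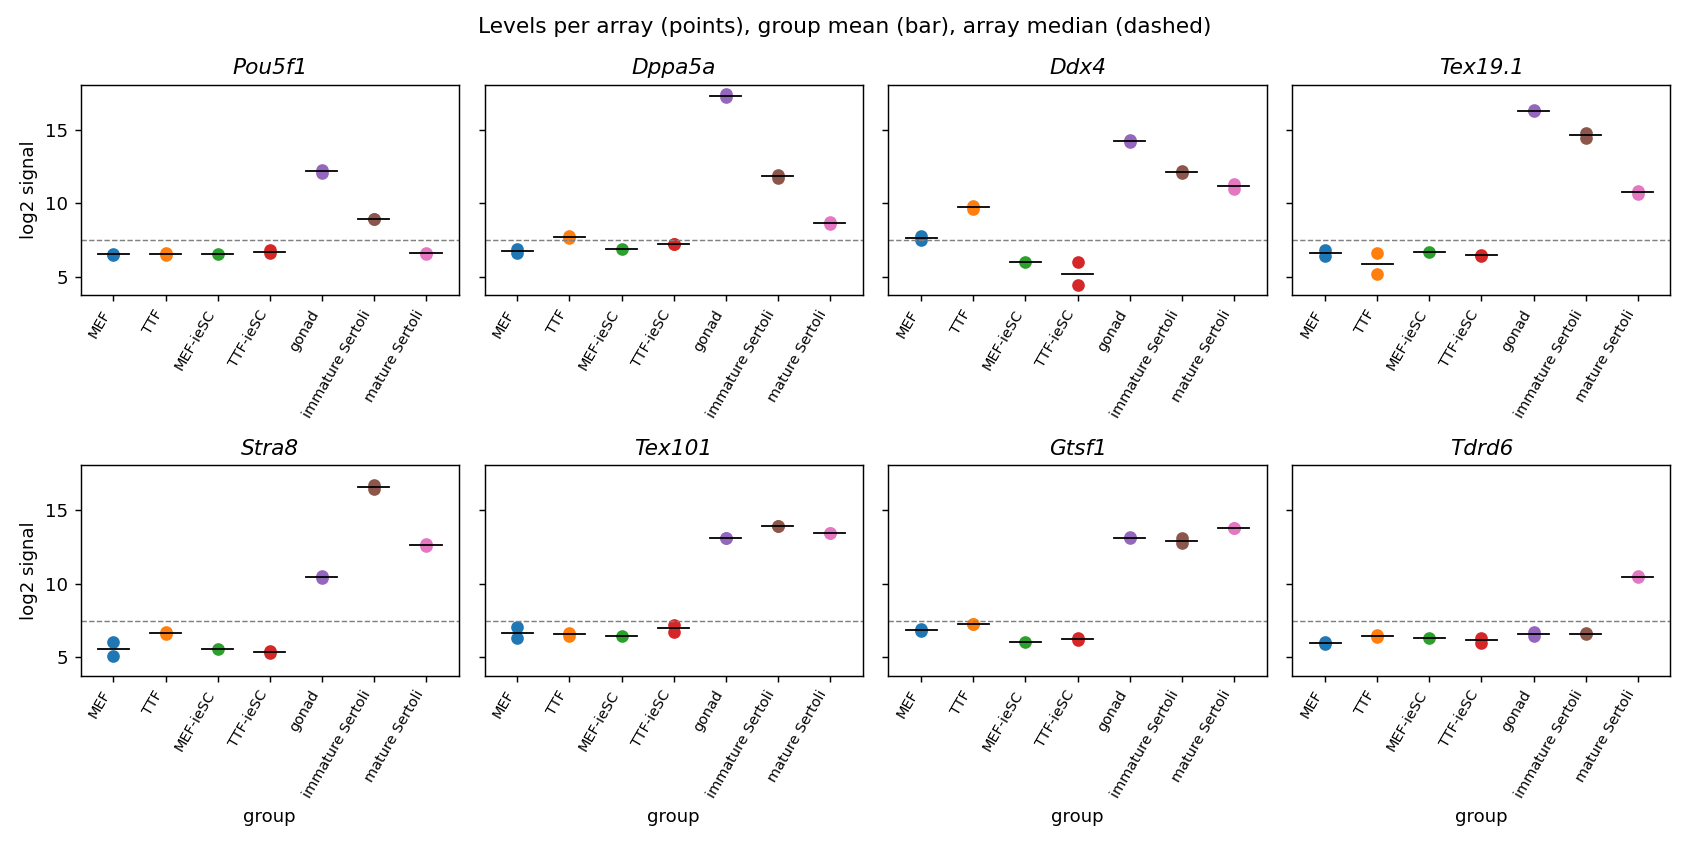
Log2 signal on each array (points) with group means (bars) for 8 members over the 7 groups, with the array median as a dashed line. Pou5f1 stands at 12.10 and 12.26 in the gonad and 6.64 and 6.58 in mature cells, and Stra8 peaks in immature cells at 16.71 and 16.49.

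Lists of related genes were read beside the members. Of 23 other pluripotency genes, 14 were higher and 5 lower in the gonad than in immature cells, led by Lefty1 (5.07), Tcl1 (4.98) and L1td1 (4.45). In the TTF induction 7 rose and 7 fell: Trim71 rose by 4.77, Tfcp2l1 rose by 4.36 and Lefty1 fell by 4.25. Trim71 had means of 4.42 in TTF, 9.19 in TTF-ieSC, 9.36 in MEF and 9.23 in MEF-ieSC. In the MEF induction 5 of these 23 rose and 7 fell. Of 23 other meiosis genes, 9 rose and 6 fell in the TTF induction, and 5 rose and 5 fell in the MEF induction. Of 20 genes that repress the germline in somatic cells, 13 rose and 2 fell in the TTF induction, with a median of 0.53, led by Uhrf1 (3.25), Dnmt3a (1.77) and L3mbtl2 (1.67). In the MEF induction 9 of the 20 rose and 5 fell. Before induction, 2 of the 20 were higher and 14 lower in TTF than in MEF, beside 25.1% and 28.4% of all genes. The same list was higher in the gonad, where the members were bright: 12 were higher and 1 lower than in immature cells. Against MEF, 17 were higher and 0 lower in the gonad, where 33.9% of all genes were higher and 30.6% lower. In TTF-ieSC against the gonad, 2 were higher and 14 lower, beside 32.2% and 34.1% of all genes. Their relation to the members was not tested. Of 30 other germ cell genes, 8 rose and 10 fell in the TTF induction. In the gonad against immature cells, 13 of these 30 were higher and 8 lower, with a median of −0.0028. They were led by Sohlh1 (−3.80), Zbtb16 (−3.39) and Rhox9 (3.18). Of the 23 other meiosis genes, 8 were higher and 4 lower in that comparison, with a median of 0.09. Over all genes 32.6% rose and 29.2% fell in the TTF induction, 27.6% rose and 27.1% fell in the MEF induction, and 30.5% were higher and 26.0% lower in the gonad than in immature cells.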

How the data were processed

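RNA was hybridised to 1-colour Agilent arrays with Cy3 label, 13 arrays in 7 groups. The authors deposited log2 signals of 62976 features in a single table, with the same minimum (0.566), median (7.488) and maximum (18.872) on every array, so the arrays share a common distribution. The submitters' processing notes name limma without a version or a role. Background correction, floors and detection flags were not given in these sources. No depth applies to an array, and precision rests on how many there were. Platform annotation named the features, and RefSeq (GRCm38.p6) updated the symbols.

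The brightest feature, by the mean of all arrays, stood for its gene. All 13 arrays and 20738 genes entered 1 fit without a filter (lmFit, contrasts.fit and eBayes; limma 3.58.1, R 4.3.3), with 6 residual and 1.41 prior degrees of freedom. Tests were two-sided, Benjamini-Hochberg adjustment ran over all 20738 genes, and calls were made at an adjusted p under 0.05. Errors are standard errors of that fit, which was tested on simulated data. Members, gene lists and tests were chosen with earlier results of these data known. By rule, array values are given for members above the array median in some group and called with a difference of at least 1, and others by range and counts; up to 3 called genes of a related list are named per comparison. Alternatives were filters on dim genes, other normalizations, the mean of features or each feature alone, a variance trend, the groups alone, a minimum difference and leaving out each replicate.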

Additional observations from a re-analysis of the deposited data

Results flagged for a closer look

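In the difference between the 2 inductions, 42.3% of all genes were called, so calls were no more common among the members. The change from TTF to TTF-ieSC minus the change from MEF to MEF-ieSC was called by limma for 16 of 40 members, at an adjusted p between 5.47e-07 and 0.049. On the log2 scale it was −3.79 for Prdm1, −2.87 for Ddx4, −2.46 for Sycp2, −1.97 for Dazl, −1.34 for Stra8, −0.69 for Nanos2, −0.69 for Piwil4, −0.62 for Tdrd6 and −0.60 for Dppa5a. It was 3.84 for Dppa3, 2.39 for Hormad1, 1.22 for Tex15, 0.81 for Lin28a, 0.79 for Tex14, 0.67 for Sox2 and 0.47 for Nanos3. Lin28a, Tex15, Tex14, Nanos3 and Nanos2 rose in both inductions by different amounts. The other features of Hormad1 and Tex15 were not called (1.49 and 0.31). The MEF-ieSC group had 1 array, so its own spread was not measured. Dazl, Dppa3, Hormad1, Sox2, Stra8, Sycp2, Tdrd6 and Tex14 were under the array median in both fibroblasts and in the MEF-ieSC array. The call of Dppa3 was lost without any 1 array of the gonad, the immature cells or MEF, without TTF replicate 1 (2.90) and without TTF-ieSC replicate 2 (2.98). The calls of Dazl, Dppa5a, Nanos2, Piwil4, Stra8 and Tdrd6 were also lost without some single array.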

How the results depend on the processing

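No paired analysis was possible because the labels give no replicate numbers: those used here follow the order of deposit and pair no arrays. Quantile normalization and a common 75th percentile change almost nothing by construction, since the arrays already share their distribution, and are left out of the totals. Of 380 alternative counts of members, 363 stayed within 1.5 times the reported count. With a 75th percentile filter 1 member was higher in mature than in immature cells. With the groups of a comparison fitted alone, 5 rose from MEF to MEF-ieSC, 7 were higher and 4 lower in TTF than in MEF, and 3 were lower in the difference of inductions. With a minimum log2 difference of 1, the counts were 2 lower in gonad than mature cells, 1 higher in mature than immature cells, 7 lower in TTF-ieSC than TTF, 5 higher in MEF-ieSC than MEF, 1 higher in TTF-ieSC than immature cells, 5 higher and 2 lower in TTF than MEF, and 3 higher and 5 lower in the difference of inductions. Leaving out single replicates gave 5 to 10 members lower in the difference of inductions (9 reported), with 5 when TTF replicate 1 or either TTF-ieSC array was left out. Directions turned with the feature read. Feature 43369 of Nanog gave 4.22 in gonad minus MEF, 0.18 in mature minus immature, −2.13 in MEF-ieSC minus MEF, −0.86 in TTF-ieSC minus immature, −6.62 in TTF-ieSC minus gonad, −2.15 in TTF minus MEF and 1.88 in the difference of inductions. The mean of its features gave 2.05, −1.05, −3.24, −0.95 and 0.81 for gonad minus MEF, MEF-ieSC minus MEF, TTF-ieSC minus gonad, TTF minus MEF and the difference of inductions. For Sall4, feature 51842 gave −0.26 in TTF-ieSC minus immature and −1.72 in TTF-ieSC minus gonad, where the mean gave −0.77. In TTF-ieSC minus TTF, feature 53171 of Dppa2 gave 0.63 and feature 12027 of Kit gave 0.15. Uncalled values also turned without 1 array. Over single left-out arrays, Stra8 in MEF-ieSC minus MEF ran from −0.43 (without MEF replicate 2) to 0.47, Dppa4 in TTF minus MEF from −0.81 (without MEF replicate 2) to 1.20, Zfp42 in TTF-ieSC minus TTF from −0.66 (without TTF replicate 2) to 1.30, and Mov10l1 in TTF-ieSC minus TTF from −2.13 to 0.69 and in the difference of inductions from −1.79 to 1.03, both highest without TTF-ieSC replicate 2. The cause was not tested. Of 6820 alternative values of single members, 6440 kept direction and side of the threshold, 211 lost a call, 147 gained one and 22 turned. Background is not known, so dim members have uncertain folds.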
